A study of Mus musculus with 24 samples.

Results

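The genes described here are 33 genes of purine and pyrimidine nucleotide metabolism, given as a list of gene symbols and matched by name among the 41710 genes in each of 2 tables of RNA sequencing values. All 33 were found in both tables. They cover 9 roles, from the building of the purine and pyrimidine rings to the supply and breakdown of the building blocks of DNA.

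Cells build purine nucleotides on phosphoribosyl pyrophosphate (PRPP), step by step, up to inosine monophosphate, from which the adenine and guanine nucleotides branch. Pyrimidine nucleotides are made the other way round, with the ring closed first and joined to PRPP afterwards, and both routes are paralleled by salvage enzymes that return free bases and nucleosides to the pool. Ribonucleotide reductase turns ribonucleotides into deoxyribonucleotides for DNA, so many of these enzymes are most needed in dividing cells. Myc, a transcription factor that pairs with Max and binds the sequence CACGTG, is known for the regulation of many nucleotide synthesis genes, and Mlx is the partner of the glucose-responsive factors ChREBP and MondoA.

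RNA was sequenced from mouse embryonic fibroblasts (MEFs), grown from cells pooled from at least 6 embryos, as 3 libraries for each of 4 genotypes in primary cells and in cells immortalized with a lentivirus that carries SV40 T-antigen and blasticidin resistance. The lines carried floxed alleles of Myc, of Mlx or of both and a Cre recombinase fused to the estrogen receptor, driven by the ubiquitous ROSA26 promoter. MycKO, MlxKO and DKO (double knockout) cells had lost Myc, Mlx or both in 500 nM 4-hydroxytamoxifen (4OHT), over at least 7 days in primary and 10 days in immortalized cells, and WT cells had intact loci. The question is how loss of Myc, of Mlx or of both changes RNA levels in cells that stop dividing and in cells that do not.

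Primary RNA was taken on day 10. The label names 70% ethanol as the vehicle for 4OHT, and WT cells are those whose loci were intact. Immortalized WT cells were kept in medium without 4OHT, and the labels do not say which agent primary WT cells had. Treatment and genotype therefore cannot be told apart in comparisons that use WT in the immortalized table. The same holds in the primary table if WT cells had the vehicle. MycKO, MlxKO and DKO cells came from separate floxed lines, each from its own pool of embryos. Line and genotype therefore cannot be told apart between knockouts, nor against WT where WT came from another line. The study describes primary MycKO and DKO cells as growth-arrested, primary MlxKO cells as not, every immortalized line as dividing, and immortalized MycKO cells as largely tetraploid. The 3 libraries of a group are described as triplicates, from pooled cells, and elsewhere as biological replicates. The study had 3 WT lines that behaved alike and says that a single one served as control in most cases, without saying which or how many gave the libraries. Knockout cells were kept in less 4OHT after excision, and it was taken away before further studies. Each p-value measures the spread between those triplicates, whatever their origin.

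Values are CPM (reads of a gene relative to the reads of the library, after a scaling between libraries), and libraries held 15986856 to 20966163 reads on genes. At this depth a floor of 3 reads lies at 0.145 to 0.196 CPM and covers only the error of counting. The lowest value of any of the 33 genes in any library was 6.05 CPM in primary and 8.26 CPM in immortalized cells, so all 33 passed the filter on low values, a minimum of 1 CPM in any 3 of the 12 libraries of a table. Differences are log2 fold changes of CPM + 1 from limma, given on the log2 scale throughout and with their standard error (SE) for the first of a group of values, tested on both sides, with p-values adjusted over the 13101 primary or 12880 immortalized genes tested. A gene is said to rise or fall, or to be called, where the adjusted p is under 0.05. An exact permutation test of 1 gene with groups of 3 libraries, on both sides, goes no lower than 0.10, so whether libraries of the groups overlap is given as well. The primary and the immortalized table were not tested against each other. All comparisons against WT in a table share the same 3 WT libraries. Libraries go by the numbers in the column headers, and the 3 values of a group follow that order: WT1, WT2 and WT3, MlxKO5 to MlxKO7, MycKO9 to MycKO11 and DKO13 to DKO15, with WT2, WT3 and WT4 in the immortalized table.

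Single libraries stood apart from their group. In immortalized cells, Pearson's r of log2(CPM + 1) across 12880 genes, which are not independent replicates, was between 0.943 and 0.950 for WT4 with the other WT libraries, where those were at 0.992 with each other. With libraries of other genotypes, the highest r was 0.975 for WT2, 0.976 for WT3 and 0.943 for WT4. WT2 and WT3 were thus closer to a library of another genotype than to WT4. MycKO9 was at 0.983 to 0.985 with the other immortalized MycKO libraries, which were at 0.996. In primary cells, MycKO10 was at 0.990 with the other MycKO libraries, which were at 0.996. The summed CPM of the Y-linked genes Ddx3y, Kdm5d, Uty and Eif2s3y, in immortalized cells, was 11.5, 8.66 and 179 in WT, 108, 81.9 and 88.9 in MlxKO, 39.0, 36.5 and 38.9 in MycKO and 2.16, 2.55 and 3.20 in DKO. WT4 thus held far more Y-linked RNA than WT2 and WT3, and the immortalized genotypes differed from each other. Immortalized counts of called genes, over the 33 genes and for most roles and lists, are therefore given with and without WT4.

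Markers of fibroblasts were abundant in primary cells, where 10 of 10 summed to 42753 to 58686 CPM with Col1a1 as the most abundant. In immortalized cells the same 10 genes summed to 18011 to 34569 CPM, again led by Col1a1, but Dcn reached no more than 17.5 CPM and Lum no more than 8.21 CPM. Macrophage markers were present in primary cells, and their values are given with Samhd1. The summed CPM of 5 endothelial markers was 3.52 to 15.5 in primary and 3.10 to 19.1 in immortalized libraries, mostly Kdr, with Pecam1 at or below 0.194 CPM everywhere. For 5 epithelial markers the sums were 1.5 to 19.3 and 0.102 to 5.91 CPM, with Epcam at or below 0.249 CPM. For 5 skeletal muscle markers they were 29.4 to 85.6 and 0 to 0.644 CPM, nearly all of it Des, with Myod1 at 0 in every immortalized library and at or below 0.0533 CPM in primary ones. The sums differed between groups in primary cells: endothelial markers were at 13.9 to 15.5 CPM in WT and 3.52 to 8.83 CPM in the knockouts, with Kdr called lower in all 3 but Tek called higher in DKO, epithelial markers were at 16.1 to 19.3 CPM in WT and at 1.5 to 4.42 CPM in the knockouts, and muscle markers were lower in MlxKO and MycKO than in WT and DKO. In immortalized cells endothelial markers were at 3.10 to 5.05 CPM in WT, 5.66 to 7.11 in MlxKO, 14.4 to 19.1 in MycKO and 7.64 to 9.00 in DKO. Kdr was called higher in MlxKO and MycKO, and Tek in DKO. Epithelial markers there were at 5.91, 5.72 and 0.365 CPM in WT, lowest in WT4. They were at 1.31 to 1.60 CPM in MlxKO, 0.102 to 0.275 in MycKO and 1.02 to 1.36 in DKO. Fibroblast markers were at 25576 to 33710 CPM in WT and 18011 to 24224 CPM in MlxKO and MycKO.

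The deleted genes come first. Myc (ENSMUSG00000022346, chromosome 15 from 61857227 to 61862223, on GRCm39) was at 100.1, 89.8 and 91.8 CPM in WT, 85.6, 89.6 and 87.3 CPM in MlxKO, 25.8, 26.8 and 26.8 CPM in MycKO and 21.6, 22.9 and 19.9 CPM in DKO libraries of primary cells. MycKO and DKO libraries lay far below the others. Its log2 fold change was -1.79 (SE 0.0707, adjusted p = 5.95e-11, limma) in MycKO and -2.08 (adjusted p = 4.24e-12, limma) in DKO, both against WT. In immortalized cells Myc was at 48.1, 39.9 and 177 CPM in WT, 72.4, 82.8 and 79.5 CPM in MlxKO, 17.2, 11.0 and 9.96 CPM in MycKO and 8.02, 5.77 and 4.25 CPM in DKO. WT4 was the highest of the 12, and all MycKO and DKO libraries were below all others. Myc changed by -2.41 (SE 0.434, adjusted p = 0.000817, limma) in MycKO and -3.38 (adjusted p = 0.000385, limma) in DKO, and without WT4 by -1.74 (adjusted p = 2.33e-05) and -2.71 (adjusted p = 1.9e-06), with a rise of 0.82 (adjusted p = 0.00955) in MlxKO.

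Mlx (ENSMUSG00000017801, chromosome 11 from 100978080 to 100983043) was at 26.0, 20.5 and 24.5 CPM in WT, 13.0, 13.5 and 14.0 CPM in MlxKO, 21.1, 17.3 and 20.5 CPM in MycKO and 11.8, 12.0 and 9.73 CPM in DKO in primary cells. MlxKO and DKO libraries were below all WT libraries, and the log2 fold change was -0.76 (SE 0.112, adjusted p = 0.000405, limma) in MlxKO and -1.02 (adjusted p = 1.48e-06, limma) in DKO. In immortalized cells it was at 25.1, 23.5 and 20.5 CPM in WT, 17.0, 12.4 and 12.1 CPM in MlxKO, 27.8, 25.1 and 22.4 CPM in MycKO and 14.5, 18 and 17.7 CPM in DKO. All MlxKO and DKO libraries again lay below WT, at -0.71 (adjusted p = 0.00471, limma) in MlxKO, while the difference of -0.44 in DKO missed the threshold (adjusted p = 0.0694, limma), but not without WT4, at -0.52 (adjusted p = 0.034). These values cover the whole gene, with any exon outside the floxed stretch.

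In primary MycKO cells, 25 of the 33 genes fell and 0 rose, where 21.9% of all genes tested fell and 20.4% rose. The median log2 fold change was -0.54 over the 33 genes and 0.00 over all genes. For the count of 0, the number of genes higher at an unadjusted p under 0.05 was 0, and it was 0 with edgeR and with DESeq2, and 1 with limma when MycKO10 was left out. The genes that were not called were Impdh1, Ctps, Ctps2, Rrm2b, Uck2, Cmpk1, Guk1 and Nme2. MycKO means of the 33 genes ran from 40.7% of the WT mean (Dut) to 114% (Impdh1). With values divided by library totals, the share of rises among all genes called went from 48.3% to 31.4%, and 27 of the 33 genes fell.

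Primary MlxKO cells showed 4 falls and 0 rises among the 33 genes, in Pfas, Cad, Rrm2 and Tyms, against 5.14% of all genes tested that fell and 3.75% that rose. At an unadjusted p under 0.05, limma had 11 genes lower and 0 higher, and edgeR and DESeq2 called 0 higher and 4 and 6 lower. The median log2 fold change was -0.13, next to 0.00 for all genes. With library-total scaling the share of rises among all genes called went from 42.2% to 53.8%, and the 33 genes had 4 falls and 0 rises.

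In primary DKO cells 27 of the 33 genes fell and 1, Ctps2, rose, where 25.5% of all genes fell and 24.0% rose. The median was -0.75 on the log2 scale, and the group means ran from 34.2% of WT for Dctd to 120% for Ctps2. Library-total scaling took the share of rises among all genes called from 48.5% to 37.2% and left 28 falls and 0 rises among the 33. Genes that were not called in DKO were Impdh1, Rrm2b, Uck2, Cmpk1 and Nme2.

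Set against MycKO, primary DKO cells had 10 lower genes (Pfas, Paics, Adsl, Atic, Impdh1, Cad, Umps, Rrm1, Rrm2 and Nme1) and 2 higher ones (Ctps2 and Samhd1), where 11.0% of all genes were lower and 10.6% higher. The 12 calls dropped to 6 without DKO13, to 6 without DKO14, to 6 without DKO15 and to 7 without MycKO9, and rose to 18 without MycKO10. Here and below, single omissions other than WT4 and fits of the groups compared alone are given without the share of all genes called. That share may move as well. The interaction asks whether the effect of Mlx loss differs between cells with and without Myc, as (DKO - MycKO) - (MlxKO - WT). Since the knockouts were separate lines, differences between lines enter it and DKO against MycKO as well, and their part was not tested. The interaction was called for 0 of the 33 genes by limma, with 6.07% of all genes negative and 7.47% positive. At an unadjusted p under 0.05 the count was 4 negative and 2 positive, edgeR called 0, and DESeq2 and library-total scaling called 1 each. It was 1 without WT2, WT3, MlxKO5, MycKO9 or MycKO11 in turn, and 2 without MycKO10.

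**Figure D1:**
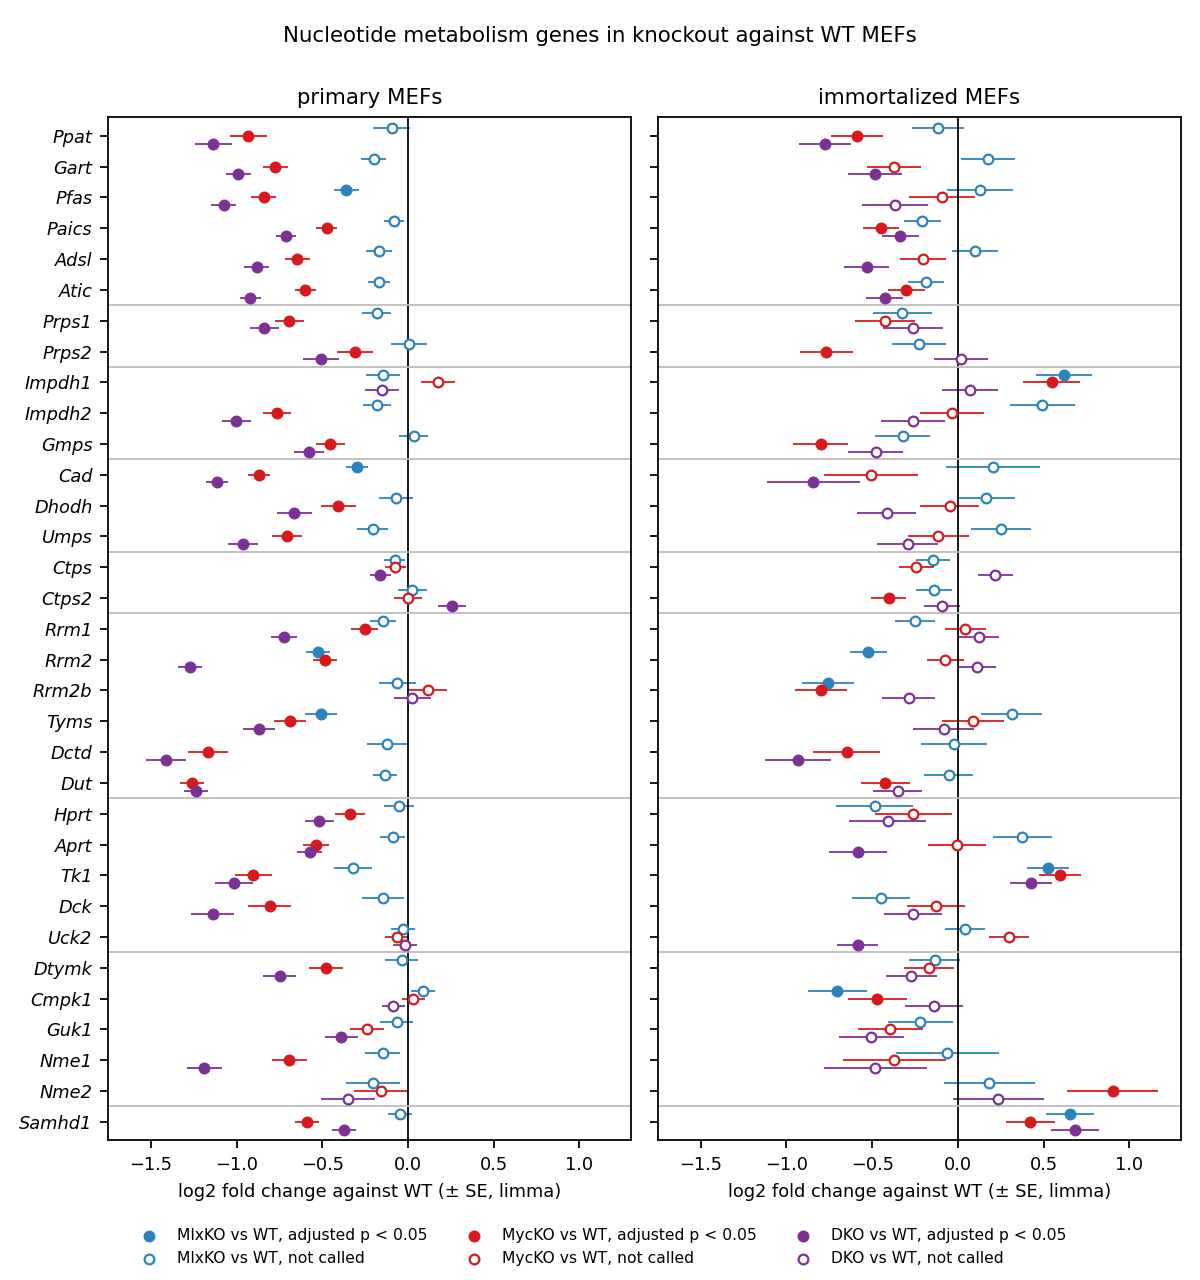
Log2 fold change against WT from limma, with its standard error, for the 33 nucleotide metabolism genes in primary (left) and immortalized (right) MEFs, where filled points have an adjusted p under 0.05 and grey lines part the roles. In primary cells 25 genes fell in MycKO and 27 in DKO, where 21.9% and 25.5% of all genes fell, and 0 and 1 rose. In immortalized cells 10 and 9 fell, next to 23.5% and 8.51% of all genes, and 4 and 2 rose, next to 24.4% and 10.4%. Without WT4, 8 and 5 fell, next to 26.7% and 10.1% of all genes, and 3 and 3 rose, next to 27.3% and 12.0%.

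In immortalized MycKO cells, 10 of the 33 genes fell (Ppat, Paics, Atic, Prps2, Gmps, Ctps2, Rrm2b, Dctd, Dut and Cmpk1) and 4 rose (Impdh1, Tk1, Nme2 and Samhd1), where 23.5% of all genes tested fell and 24.4% rose. The median log2 fold change of the 33 was -0.24. Without WT4 the counts were 8 and 3, next to 26.7% and 27.3% of all genes. Without MycKO10 or MycKO11 in turn, 9 genes were called, and 7 with only the WT and MycKO libraries in the fit.

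Immortalized MlxKO cells had 3 falls (Rrm2, Rrm2b and Cmpk1) and 3 rises (Impdh1, Tk1 and Samhd1), where 19.9% of all genes fell and 19.1% rose. Of all genes tested, 38.9% were called in either direction. Without WT4 there were 3 falls and 11 rises, next to 23.8% and 23.1% of all genes, since Gart, Pfas, Impdh2, Cad, Dhodh, Umps, Tyms and Aprt then rose as well. Library-total scaling moved the median of all genes by 0.15 on the log2 scale, took the share of rises among all genes called from 49.0% to 69.9%, and gave 3 falls and 6 rises among the 33.

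In immortalized DKO cells 9 genes fell (Ppat, Gart, Paics, Adsl, Atic, Cad, Dctd, Aprt and Uck2) and 2 rose (Tk1 and Samhd1), where 8.51% of all genes fell and 10.4% rose. The median was -0.29. Without WT4 the counts were 5 and 3, next to 10.1% and 12.0% of all genes. The 11 calls dropped to 5 without DKO13, to 6 without DKO14, to 4 without DKO15 and to 7 without MlxKO7, and to 2 with only the WT and DKO libraries in the fit.

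Against MycKO, immortalized DKO cells had 3 lower genes (Impdh1, Aprt and Uck2) and 4 higher ones (Prps2, Ctps, Ctps2 and Rrm2b), where 14.6% of all genes were lower and 14.8% higher. Without WT4, which enters this comparison through the estimate of the spread, they were 6 and 5, next to 20.4% and 20.4% of all genes. The 7 calls dropped to 3 without DKO14 and to 4 without DKO15. The interaction was negative for 5 genes (Impdh1, Impdh2, Aprt, Tk1 and Uck2) and positive for 7 (Prps2, Gmps, Ctps, Ctps2, Rrm2, Rrm2b and Cmpk1), where 23.8% of all genes were negative and 23.7% positive. Without WT4 it was negative for 12 and positive for 7, next to 28.6% and 28.0% of all genes. Library-total scaling moved the median of all genes by -0.16, took the positive share of all genes called from 49.9% to 37.2%, and gave 11 negative and 5 positive among the 33.

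Both tables had 7 of the 33 genes lower in MycKO (Ppat, Paics, Atic, Prps2, Gmps, Dctd and Dut), which is 28% of the 25 that fell in primary and 70% of the 10 that fell in immortalized cells. For DKO, 8 genes fell in both (Ppat, Gart, Paics, Adsl, Atic, Cad, Dctd and Aprt), 29.6% of the 27 and 88.9% of the 9. Without WT4, 5 genes fell in both in MycKO (not Atic and Dut) and 4 in DKO (Ppat, Adsl, Atic and Dctd). The overlap over all genes is given below with WT4 only. Of all 33 genes, 75.8% fell in primary MycKO and 81.8% in primary DKO, close to the 70% and 88.9%. Of all genes that fell in immortalized cells and were tested in both tables, 30.8% fell in primary MycKO and 45.2% in primary DKO, where 21.2% and 25.2% of all such genes fell. Tk1 and Samhd1 fell in primary and rose in immortalized cells in MycKO and in DKO, though Samhd1 was not called in immortalized MycKO without WT4. Without WT4, Ctps in DKO and Pfas, Cad and Tyms in MlxKO likewise fell in primary and rose in immortalized cells. In MlxKO, 4 genes fell in primary and 3 in immortalized cells, and Rrm2 alone fell in both tables, with WT4 and without. Of all genes that fell in immortalized MlxKO and were tested in both tables, 3.37% fell in primary MlxKO. The share that fell in primary MlxKO was 5.14% of all such genes. Whether the tables differ was not tested.

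**Figure D2:**
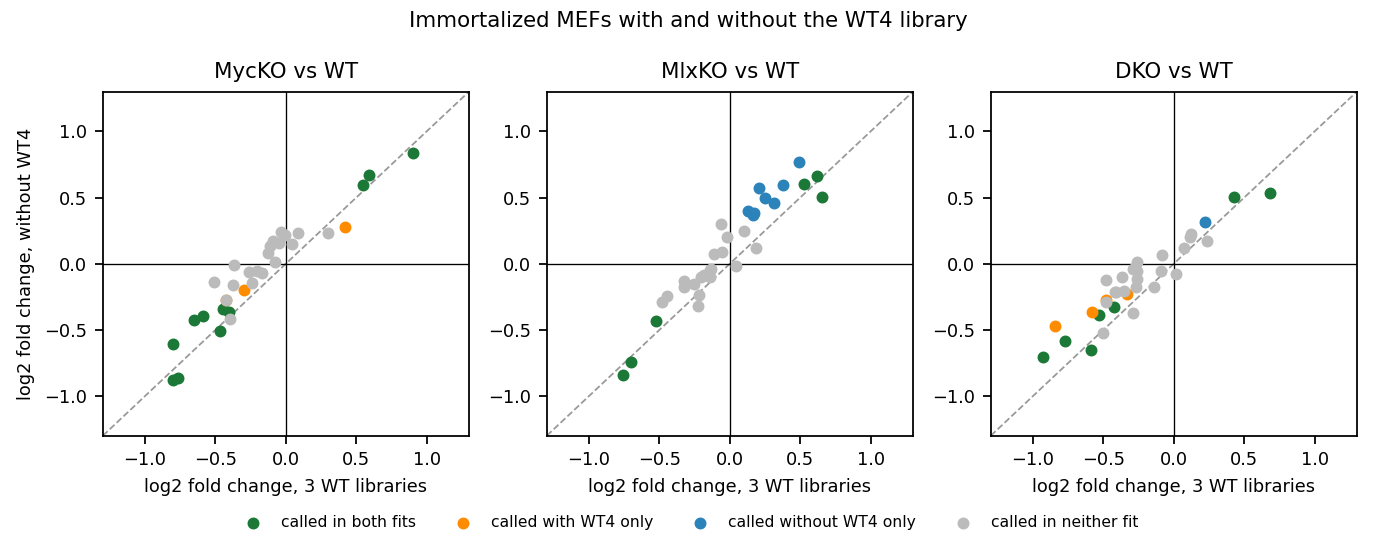
Log2 fold change against WT of the 33 genes in immortalized MEFs, fitted with 3 WT libraries (horizontal axis) and without WT4 (vertical axis), with the dashed line where both are equal and colours for the calls at an adjusted p under 0.05. Most points lie above the line, and in MlxKO 8 genes were called without WT4 only. Of all genes, 38.9% were called in MlxKO with WT4 and 46.8% without it.

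Of the 6 genes that build inosine monophosphate on PRPP (Ppat, Gart, Pfas, Paics, Adsl and Atic), 6 fell in primary MycKO and 6 in primary DKO cells, with medians of -0.71 and -0.95 on the log2 scale. Of all genes, 21.9% and 25.5% fell there. Ppat (ENSMUSG00000029246, chromosome 5 from 77061096 to 77099436), the amidotransferase of the committed step, was at 35.2, 30.4 and 31.6 CPM in WT, 29.3, 28.0 and 33.5 CPM in MlxKO, 16.6, 18.8 and 14.3 CPM in MycKO and 12.8, 15.4 and 14.4 CPM in DKO libraries. All MycKO and DKO libraries lay below all WT and MlxKO libraries, and MlxKO overlapped WT. Ppat changed by -0.93 (SE 0.108, adjusted p = 3.84e-06, limma) in MycKO and -1.14 (adjusted p = 3.16e-07, limma) in DKO. Pfas (ENSMUSG00000020899, chromosome 11 from 68875996 to 68899303), which adds a nitrogen from glutamine at a later step, was at 50.2, 51.3 and 47.0 CPM in WT, 40.1, 38.0 and 36.9 CPM in MlxKO, 27.5, 27.9 and 26.2 CPM in MycKO and 22.4, 22.4 and 24.1 CPM in DKO. No groups overlapped, with WT highest, then MlxKO, MycKO and DKO. Pfas changed by -0.36 (SE 0.0727, adjusted p = 0.00504, limma) in MlxKO, -0.84 (adjusted p = 1.78e-07, limma) in MycKO and -1.07 (adjusted p = 8.17e-09, limma) in DKO. Its log2 fold change from MycKO to DKO, -0.23 (adjusted p = 0.0296, limma), missed the threshold with only the groups compared and without MycKO9, DKO13 or DKO14 in turn (adjusted p from 0.0222 to 0.101 over the alternatives).

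Paics (ENSMUSG00000029247, chromosome 5 from 77099139 to 77116370) carries out a pair of middle steps and was at 165, 152 and 150.0 CPM in WT, 144, 143 and 154 CPM in MlxKO, 114, 111 and 111 CPM in MycKO and 96.1, 98.0 and 90.1 CPM in DKO in primary cells. MycKO lay below WT and MlxKO, DKO lay below MycKO, and WT and MlxKO overlapped. Its log2 fold change was -0.47 (adjusted p = 9.44e-06, limma) in MycKO and -0.71 (adjusted p = 8.41e-08, limma) in DKO. Between DKO and MycKO it was -0.24 (adjusted p = 0.00908, limma), a call that was lost without DKO15 (adjusted p from 0.00161 to 0.0588 over the alternatives). Gart, which has 3 activities of the route in 1 protein, Adsl, which acts here and in the step to AMP, and Atic, which closes the ring, ran in the same order of means, from 94.4 to 107, 50.8 to 58.0 and 143 to 163 CPM in WT to 49.4 to 53.7, 29.0 to 29.5 and 76.4 to 84.9 CPM in DKO. Their log2 fold changes in MycKO were -0.77, -0.65 and -0.60, all called.

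In immortalized cells, 3 of the 6 fell in MycKO and 5 in DKO, where 23.5% and 8.51% of all genes fell. Without WT4 these were 2 and 3, next to 26.7% and 10.1% of all genes. Without WT4, 2 rose in MlxKO, where 23.1% of all genes rose. Ppat was at 53.5, 43.0 and 71.9 CPM in WT, 53.4, 48.1 and 50.5 CPM in MlxKO, 37.4, 34.0 and 37.4 CPM in MycKO and 31.2, 32.5 and 31.4 CPM in DKO. WT4 was the highest library, and all MycKO and DKO libraries lay below all WT and MlxKO libraries. Ppat changed by -0.59 (SE 0.152, adjusted p = 0.0075, limma) in MycKO and -0.77 (adjusted p = 0.00507, limma) in DKO. Without WT4 these were -0.40 (adjusted p = 0.0104) and -0.58 (adjusted p = 0.00256), within adjusted p from 0.000926 to 0.0518 and adjusted p from 5.25e-05 to 0.0538 over the alternatives, and both calls were lost with only the groups compared in the fit. Paics was at 279, 279.6 and 348 CPM in WT, 268, 249.8 and 263 CPM in MlxKO, 231, 217 and 212 CPM in MycKO and 226, 234 and 255 CPM in DKO. All knockout libraries were below all WT libraries, with log2 fold changes of -0.45 (adjusted p = 0.00481, limma) in MycKO and -0.34 (adjusted p = 0.0469, limma) in DKO. The DKO call was lost in 15 alternatives, among them the omission of each of 10 libraries in turn, WT4 included (adjusted p from 0.0192 to 0.155).

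Pfas was at 46.3, 42.6 and 78.1 CPM in WT, 54.7, 62.0 and 59.7 CPM in MlxKO, 43.9, 51.8 and 55.8 CPM in MycKO and 46.6, 39.4 and 38.7 CPM in DKO in immortalized cells. WT4 was far above the other WT libraries, and the groups overlapped. The lowest value against WT was -0.36 on the log2 scale in DKO (adjusted p = 0.197, limma), and without WT4 Pfas was at 0.40 (adjusted p = 0.0206) in MlxKO. Atic changed by -0.30 (adjusted p = 0.0334, limma) in MycKO and -0.43 (adjusted p = 0.016, limma) in DKO. Both were lost with only the groups compared, the first also without WT2, WT4, MycKO9, MycKO10 or MycKO11 in turn (adjusted p from 0.0198 to 0.121) and the second without DKO14 or DKO15 (adjusted p from 0.00253 to 0.081). Adsl changed in DKO by -0.53 (adjusted p = 0.017, limma), a call lost with only the groups compared and without DKO13 or DKO15 (adjusted p from 0.00286 to 0.0779). Gart changed in DKO by -0.48 (adjusted p = 0.0495, limma) and lost the call in 13 alternatives, without WT4 among them, at -0.27 (adjusted p = 0.0931) (adjusted p from 0.0198 to 0.153). The genes Ppat and Paics lie head to head on opposite strands and overlap by 298 bases (chr5:77099139-77099436, GRCm39). The libraries were directional, and whether the counting used the strand is not stated.

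PRPP itself is made by Prps1 and Prps2, which do the same step. Prps1 (ENSMUSG00000031432, chromosome X from 139346452 to 139376893) was at 33.1, 31.4 and 30.9 CPM in WT, 27.5, 28.6 and 27.6 CPM in MlxKO, 19.5, 20.0 and 18.4 CPM in MycKO and 18.7, 17.9 and 15.6 CPM in DKO in primary cells. All MlxKO, MycKO and DKO libraries lay below WT, and the difference was called in MycKO at -0.69 (SE 0.0836, adjusted p = 5.57e-06, limma) and in DKO at -0.84 (adjusted p = 5.17e-07, limma). Prps2 (ENSMUSG00000025742, chromosome X from 166125769 to 166165981) was at 23.8, 26.0 and 28.8 CPM in WT, 24.9, 26.7 and 27.0 CPM in MlxKO, 18.8, 24.9 and 19.5 CPM in MycKO and 19.1, 16.8 and 18.3 CPM in DKO. MycKO10 overlapped WT while the DKO libraries did not. The log2 fold change of -0.31 (adjusted p = 0.0268, limma) in MycKO missed the threshold with only the groups compared and without WT2, WT3, MycKO9 or MycKO11 in turn (adjusted p from 0.00124 to 0.123), and that of -0.51 (adjusted p = 0.000741, limma) in DKO did not. Per kilobase of transcript, Prps1 was at 16.2 ± 0.572 and Prps2 at 3.60 ± 0.344 CPM per kb in primary WT cells (mean ± SD, n = 3). Prps1 shares 10.1% of its 50-base stretches with Prps1l3 and Mipol1, so reads may be split between them.

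Immortalized Prps1 was at 47.7, 42.1 and 61.3 CPM in WT, 41.2, 39.2 and 38.3 CPM in MlxKO, 49.3, 31.0 and 32.6 CPM in MycKO and 38.0, 42.9 and 43.0 CPM in DKO. MycKO9 lay among the WT values and the other MycKO libraries below them, and the log2 fold change of -0.42 missed the threshold (adjusted p = 0.0625, limma), but not without MycKO9, at -0.63 (adjusted p = 0.00577), or without WT3, at -0.54 (adjusted p = 0.0319). Prps2 was at 75.9, 71.0 and 60.1 CPM in WT, 70.2, 50.6 and 56.3 CPM in MlxKO, 39.4, 36.2 and 44.8 CPM in MycKO and 57.5, 73.2 and 79.9 CPM in DKO. The MycKO libraries were the 3 lowest of the 12, and DKO overlapped WT. Prps2 changed by -0.77 (SE 0.157, adjusted p = 0.00188, limma) in MycKO, was higher in DKO than in MycKO by 0.78 (adjusted p = 0.00254, limma), and had a positive interaction of 1.01 (adjusted p = 0.00297, limma).

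Guanine nucleotides branch off through IMP dehydrogenase, in the forms Impdh1 and Impdh2, and then Gmps. Impdh2 (ENSMUSG00000062867, chromosome 9 from 108437485 to 108442783) was at 145, 149 and 125 CPM in WT, 119, 116 and 134 CPM in MlxKO, 84.8, 73.1 and 87.9 CPM in MycKO and 69.5, 69.0 and 68.9 CPM in DKO in primary cells. MycKO and DKO lay below WT and MlxKO without overlap. Impdh2 changed by -0.76 (SE 0.0827, adjusted p = 1.85e-06, limma) in MycKO and -1.0 (adjusted p = 6.42e-08, limma) in DKO. Impdh1 (ENSMUSG00000003500, chromosome 6 from 29200429 to 29216363) was at 61.7, 58.4 and 51.3 CPM in WT, 54.1, 47.4 and 52.9 CPM in MlxKO, 71.0, 53.8 and 69.9 CPM in MycKO and 49.5, 52.3 and 51.7 CPM in DKO. Here MycKO overlapped WT, with MycKO10 lower than the other MycKO libraries, and DKO overlapped WT as well. Impdh1 was called in MycKO only without MycKO10, at 0.30 (adjusted p = 0.00458). With all libraries it was called in DKO against MycKO alone, at -0.33 (adjusted p = 0.0255, limma), and not without the filter on low values or without MycKO9, MycKO11 or any DKO library in turn (adjusted p from 0.000363 to 0.114). In primary WT cells Impdh2 stood at 75.2 ± 6.95 and Impdh1 at 23.4 ± 2.18 CPM per kb, and in DKO cells at 37.2 ± 0.178 and 21.0 ± 0.605 (mean ± SD, n = 3). Impdh2 shares 73.9% of its 50-base stretches, and 69.3% at 75 bases, with its pseudogene Impdh2-ps, which is not in the tables under that name.

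Gmps (ENSMUSG00000027823, chromosome 3 from 63883515 to 63931037), which makes GMP, was at 82.6, 85.9 and 93.7 CPM in WT, 84.3, 88.8 and 95.0 CPM in MlxKO, 58.9, 74.4 and 58.4 CPM in MycKO and 58.6, 58.4 and 57.4 CPM in DKO in primary cells. All MycKO and DKO libraries were below all WT and MlxKO libraries, with log2 fold changes of -0.45 (adjusted p = 0.000459, limma) and -0.58 (adjusted p = 3.67e-05, limma). In immortalized cells it was at 158, 135 and 218 CPM in WT, 151, 119 and 132 CPM in MlxKO, 94.9, 96.1 and 95.1 CPM in MycKO and 103, 127 and 131 CPM in DKO. MycKO libraries lay within a narrow range below all others, and WT4 was highest. Gmps changed by -0.80 (SE 0.162, adjusted p = 0.00177, limma) in MycKO. Its interaction of 0.64 (adjusted p = 0.0361, limma) was not called with library-total scaling, without the filter, or without MlxKO6, MlxKO7, any MycKO library, DKO14 or DKO15 in turn (adjusted p from 0.00966 to 0.091).

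Immortalized Impdh1 was at 19.2, 23.5 and 23.5 CPM in WT, 26.6, 38.9 and 39.0 CPM in MlxKO, 30.5, 34.8 and 32.5 CPM in MycKO and 27.2, 21.0 and 21.6 CPM in DKO. MlxKO and MycKO libraries lay above all WT libraries, and DKO overlapped WT. It rose by 0.55 (SE 0.164, adjusted p = 0.0159, limma) in MycKO and 0.62 (adjusted p = 0.0116, limma) in MlxKO. The MycKO call was lost without WT2 or MycKO10 (adjusted p from 0.00597 to 0.0666), and the MlxKO call without MlxKO6 or MlxKO7 (adjusted p from 0.00164 to 0.0591). The interaction was -1.09 (adjusted p = 0.00243, limma), and the difference of DKO from MycKO was -0.47 (adjusted p = 0.0458, limma), the latter lost without the filter and without MlxKO6, MlxKO7, any MycKO library, DKO14 or DKO15 in turn (adjusted p from 0.0177 to 0.16). Impdh2 was at 80.9, 87.9 and 150.3 CPM in WT, 138, 146 and 149.6 CPM in MlxKO, 114, 94.8 and 91.8 CPM in MycKO and 85.5, 79.5 and 90.8 CPM in DKO. WT4 was level with MlxKO and far above WT2 and WT3. Its interaction of -0.72 (adjusted p = 0.0418, limma) was lost in the omission of each of 11 libraries in turn, WT4 being the exception, with edgeR and without the filter (adjusted p from 4.28e-05 to 0.103). In MlxKO it was 0.49 with all WT libraries (adjusted p = 0.055, limma) and 0.77 (adjusted p = 0.000135) without WT4.

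The pyrimidine ring is built by Cad, Dhodh and Umps, of which Cad holds the first 3 activities in 1 protein. All 3 fell in primary MycKO and DKO cells, where 21.9% and 25.5% of all genes fell. Cad (ENSMUSG00000013629, chromosome 5 from 31212111 to 31236418) was at 155, 165 and 148 CPM in WT, 125, 134 and 121 CPM in MlxKO, 82.6, 83.8 and 89.1 CPM in MycKO and 73.8, 71.1 and 70.1 CPM in DKO. The 4 groups did not overlap, in the order WT, MlxKO, MycKO and DKO. Cad changed by -0.30 (SE 0.0631, adjusted p = 0.00675, limma) in MlxKO, -0.87 (adjusted p = 2.86e-08, limma) in MycKO, -1.11 (adjusted p = 1.19e-09, limma) in DKO, and -0.24 (adjusted p = 0.00985, limma) from MycKO to DKO. Umps (ENSMUSG00000022814, chromosome 16 from 33774077 to 33787429), which joins the ring to PRPP and makes UMP, was at 55.1, 55.0 and 49.0 CPM in WT, 44.8, 44.0 and 48.6 CPM in MlxKO, 32.2, 28.1 and 36.4 CPM in MycKO and 26.4, 26.8 and 26.8 CPM in DKO. WT was highest, MlxKO lay below it without overlap, and DKO was lowest. Umps changed by -0.71 (adjusted p = 7.86e-06, limma) in MycKO and -0.96 (adjusted p = 2.01e-07, limma) in DKO, while that from MycKO to DKO, -0.26 (adjusted p = 0.0489, limma), was lost in 12 alternatives, among them without WT1, WT2, MlxKO5, MlxKO6, MycKO9, MycKO11 or any DKO library in turn (adjusted p from 0.00376 to 0.223). Dhodh, the mitochondrial step, ran from 11.4 to 12.2 CPM in WT to 6.75 to 7.54 CPM in DKO and changed by -0.41 (adjusted p = 0.00397, limma) in MycKO.

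In immortalized cells Cad was at 107, 107 and 232 CPM in WT, 129, 194 and 162 CPM in MlxKO, 77.0, 113 and 105 CPM in MycKO and 89.2, 78.8 and 64.3 CPM in DKO. WT4 was above every other library, and the DKO libraries were below all WT libraries. Its log2 fold change of -0.84 (SE 0.273, adjusted p = 0.0495, limma) in DKO became -0.47 (adjusted p = 0.0864) without WT4 and was lost in 13 alternatives in all, among them without any MlxKO or DKO library, MycKO10 or MycKO11 in turn (adjusted p from 0.00713 to 0.151). In MlxKO it was 0.20 (adjusted p = 0.573, limma), and 0.57 (adjusted p = 0.0224) without WT4. Umps was at 49.1, 52.4 and 85.7 CPM in WT, 66.3, 72.3 and 78.3 CPM in MlxKO, 63.3, 52.9 and 51.6 CPM in MycKO and 47.7, 51.6 and 48.3 CPM in DKO, again with WT4 above WT2 and WT3. MlxKO lay between, at 0.25 on the log2 scale (adjusted p = 0.274, limma) and 0.50 (adjusted p = 0.00351) without WT4. Dhodh ranged from 8.26 to 16.6 CPM, also highest in WT4, and was called against WT in MlxKO without WT4, at 0.37 (adjusted p = 0.0389), and in DKO without WT3, at -0.56 (adjusted p = 0.0357).

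CTP is made from UTP by Ctps and Ctps2. Ctps (ENSMUSG00000028633, chromosome 4 from 120395395 to 120471131) was at 138, 152 and 143 CPM in WT, 128, 143 and 139.8 CPM in MlxKO, 138, 140.0 and 133 CPM in MycKO and 127, 134 and 126 CPM in DKO in primary cells. MlxKO and MycKO overlapped WT. Its log2 fold change in DKO, -0.16 (adjusted p = 0.0402, limma), was lost with edgeR and without WT2, WT3, DKO13 or DKO15 in turn (adjusted p from 0.00329 to 0.171). Ctps2 (ENSMUSG00000031360, chromosome X from 161684145 to 161820217) was at 27.0, 23.0 and 26.2 CPM in WT, 24.6, 25.7 and 27.2 CPM in MlxKO, 24.3, 26.6 and 25.3 CPM in MycKO and 31.9, 29.8 and 29.9 CPM in DKO. DKO libraries were above all others. Ctps2 rose by 0.26 (SE 0.0825, adjusted p = 0.0156, limma) in DKO and was higher than in MycKO by 0.26 (adjusted p = 0.0337, limma). The first call was lost with library-total scaling and without WT2 or DKO13 (adjusted p from 0.00943 to 0.0913), the second without MycKO9, MycKO11 or any DKO library (adjusted p from 0.0209 to 0.125). Ctps was at 53 ± 2.70 and Ctps2 at 3.15 ± 0.264 CPM per kb in primary WT cells (mean ± SD, n = 3).

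Immortalized Ctps was at 143, 144 and 176 CPM in WT, 139, 142 and 137 CPM in MlxKO, 121, 134 and 135 CPM in MycKO and 179, 174 and 185 CPM in DKO. DKO libraries were above MlxKO and MycKO and overlapped WT through WT4. Ctps was higher in DKO than in MycKO by 0.46 (SE 0.10, adjusted p = 0.00425, limma), with an interaction of 0.61 (adjusted p = 0.00435, limma). Ctps2 was at 52.6, 54.1 and 58.1 CPM in WT, 54.7, 45.8 and 48.9 CPM in MlxKO, 44.5, 39.4 and 40.0 CPM in MycKO and 48.3, 52.5 and 53.7 CPM in DKO. MycKO libraries were the lowest, below all WT libraries. Ctps2 changed by -0.40 (adjusted p = 0.00728, limma) in MycKO and was higher in DKO than in MycKO by 0.31 (adjusted p = 0.0389, limma), which was lost without MlxKO7, MycKO10, MycKO11, DKO14 or DKO15 in turn (adjusted p from 0.00882 to 0.123). The Ctps2 interaction of 0.45 (adjusted p = 0.0234, limma) was lost with library-total scaling and without MlxKO6, MlxKO7, MycKO10, MycKO11, DKO14 or DKO15 in turn (adjusted p from 0.0106 to 0.13).

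**Figure D3:**
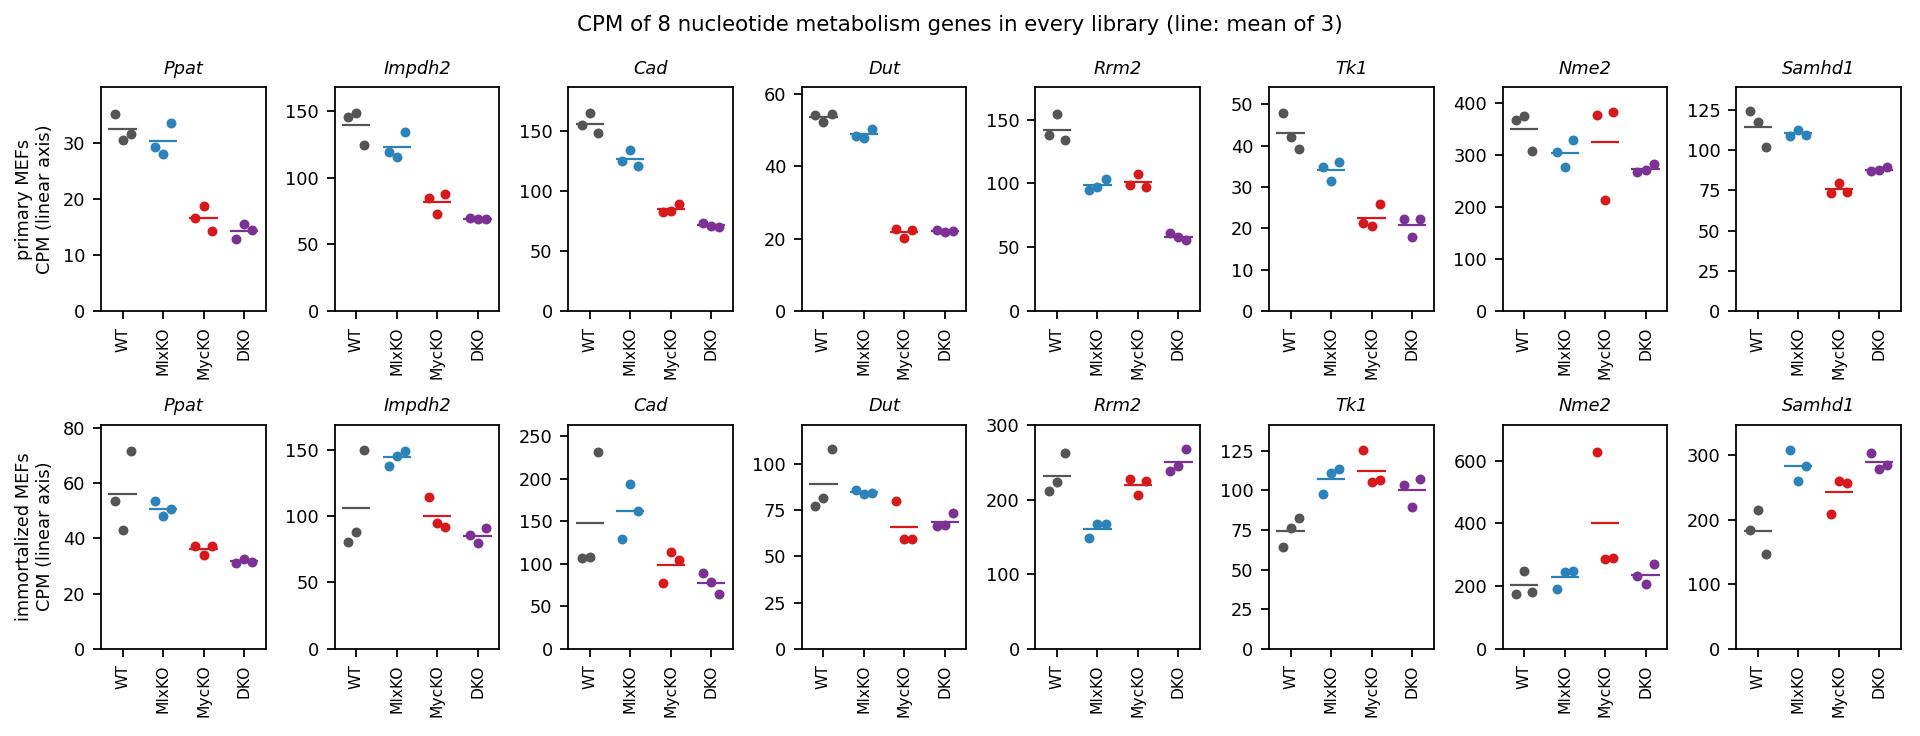
CPM of 8 of the genes in each of the 12 primary (top) and 12 immortalized (bottom) libraries, on linear axes that start at 0 and differ between panels, with a line at the mean of the 3 libraries of a group. Dut, for example, lay at 52.2 to 54.5 CPM in primary WT and at 20.3 to 22.7 CPM in primary MycKO libraries, and immortalized MycKO9 held 628 CPM of Nme2.

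Deoxynucleotides are supplied by ribonucleotide reductase (large subunit Rrm1, small subunits Rrm2 and Rrm2b), and Dctd, Dut and Tyms lead to thymidylate. In primary cells 5 of these 6 genes fell in MycKO and 5 in DKO, the exception being Rrm2b. Of all genes, 21.9% and 25.5% fell there. Dut (ENSMUSG00000027203, chromosome 2 from 125089110 to 125100966), which removes dUTP, was at 54.1, 52.2 and 54.5 CPM in WT, 48.4, 47.7 and 50.3 CPM in MlxKO, 22.7, 20.3 and 22.4 CPM in MycKO and 22.5, 21.8 and 22.2 CPM in DKO. The MycKO and DKO libraries lay together at less than 23 CPM, far below WT and MlxKO. Dut changed by -1.26 (SE 0.0708, adjusted p = 2.05e-09, limma) in MycKO and -1.24 (adjusted p = 1.3e-09, limma) in DKO. Dctd (ENSMUSG00000031562, chromosome 8 from 48552127 to 48606268), which deaminates dCMP, was at 20.3, 22 and 16.3 CPM in WT, 16.6, 17.4 and 19.4 CPM in MlxKO, 8.09, 7.72 and 8.42 CPM in MycKO and 7.31, 6.71 and 6.05 CPM in DKO. MycKO and DKO were again below all WT and MlxKO libraries, at -1.17 (SE 0.116, adjusted p = 7.61e-07, limma) and -1.41 (adjusted p = 6.33e-08, limma) against WT.

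Rrm2 (ENSMUSG00000020649, chromosome 12 from 24757811 to 24764145) was at 138, 155 and 134 CPM in WT, 94.7, 97.1 and 104 CPM in MlxKO, 98.5, 108 and 97.3 CPM in MycKO and 60.8, 58.3 and 55.6 CPM in DKO in primary cells. MlxKO and MycKO overlapped each other below WT, and DKO lay below both. Rrm2 changed by -0.52 (SE 0.0701, adjusted p = 0.000185, limma) in MlxKO, -0.49 (adjusted p = 3.46e-05, limma) in MycKO and -1.27 (adjusted p = 8.42e-10, limma) in DKO, and from MycKO to DKO by -0.79 (adjusted p = 4.58e-07, limma). Rrm2b (ENSMUSG00000022292, chromosome 15 from 37924196 to 37961562), a small subunit known as a p53 target, was at 13.0, 14.2 and 13.6 CPM in WT, 14.0, 12.0 and 13.0 CPM in MlxKO, 13.5, 17.8 and 13.5 CPM in MycKO and 14.2, 13.9 and 13.4 CPM in DKO. All groups overlapped. Per kilobase, Rrm2 was at 54.2 ± 4.20 in WT and 22.2 ± 0.987 in DKO, and Rrm2b at 2.97 ± 0.124 and 3.02 ± 0.0827 CPM per kb (mean ± SD, n = 3). Tyms (ENSMUSG00000025747, chromosome 5 from 30263198 to 30278633), thymidylate synthase, was at 46.6, 38.0 and 37.6 CPM in WT, 27.6, 28.0 and 29.2 CPM in MlxKO, 25.8, 22.8 and 25.9 CPM in MycKO and 23.5, 20.5 and 21.3 CPM in DKO. All knockout libraries lay below all WT libraries. Tyms changed by -0.51 (adjusted p = 0.00263, limma) in MlxKO, -0.69 (adjusted p = 1.81e-05, limma) in MycKO and -0.87 (adjusted p = 1.18e-06, limma) in DKO. Rrm1 was between 135 and 244 CPM and changed by -0.25 (adjusted p = 0.0138, limma) in MycKO, a call lost without MycKO9 or MycKO11 (adjusted p from 0.000217 to 0.068), and by -0.73 (adjusted p = 1.03e-06, limma) in DKO. Tyms, Rrm2b and Rrm2 share 10.8%, 6.27% and 5.40% of their 50-base stretches with other genes.

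Of the 6 genes of this role, 3 fell in immortalized MycKO, 2 in MlxKO and 1 in DKO cells. Of all genes, 23.5%, 19.9% and 8.51% fell there. Without WT4 there were 2, 2 and 1 falls, next to 26.7%, 23.8% and 10.1% of all genes, and a rise of Tyms in MlxKO. Rrm2 was at 211, 224 and 262 CPM in WT, 148, 168 and 167 CPM in MlxKO, 228, 206 and 226 CPM in MycKO and 238, 246 and 267 CPM in DKO. MlxKO libraries were the lowest 3, and the other groups overlapped. Rrm2 changed by -0.52 (SE 0.107, adjusted p = 0.00316, limma) in MlxKO and had an interaction of 0.71 (adjusted p = 0.00253, limma). Rrm2b was at 35.0, 28.5 and 26.5 CPM in WT, 19.3, 16.0 and 16.5 CPM in MlxKO, 15.0, 15.6 and 19.8 CPM in MycKO and 21.2, 26.3 and 25.5 CPM in DKO. All knockout libraries were below all WT libraries, with DKO nearest to WT. Rrm2b changed by -0.80 (adjusted p = 0.0012, limma) in MycKO and -0.76 (adjusted p = 0.00289, limma) in MlxKO, and its interaction was 1.27 (adjusted p = 0.000611, limma). Its difference of DKO from MycKO, 0.51 (adjusted p = 0.024, limma), was lost without MycKO9, MycKO10, DKO14 or DKO15 (adjusted p from 0.00934 to 0.0972). Dctd was at 18.9, 16.4 and 28.7 CPM in WT, 19.5, 21.1 and 20.6 CPM in MlxKO, 14.2, 13.3 and 11.3 CPM in MycKO and 8.47, 11.7 and 11.3 CPM in DKO. MycKO and DKO were below WT and MlxKO, with log2 fold changes of -0.65 (adjusted p = 0.0152, limma) and -0.93 (adjusted p = 0.00675, limma). The first was lost without MycKO11 and with only the groups compared (adjusted p from 0.0041 to 0.0629), the second with only the groups compared (adjusted p from 0.000111 to 0.0615).

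Dut in immortalized cells was at 77.4, 81.8 and 108 CPM in WT, 86.3, 84.0 and 84.4 CPM in MlxKO, 80, 59.3 and 59.2 CPM in MycKO and 66.6, 66.8 and 73.3 CPM in DKO. MycKO9 lay among the WT libraries and the other MycKO libraries below them. The log2 fold change of -0.42 (adjusted p = 0.0283, limma) in MycKO was lost with only the groups compared and without WT4, MycKO10 or MycKO11, at -0.28 (adjusted p = 0.0793) without WT4 (adjusted p from 0.00175 to 0.112). Tyms was at 46.3, 50.5 and 65.9 CPM in WT, 74.0, 64.2 and 63.0 CPM in MlxKO, 77.1, 48.4 and 49.6 CPM in MycKO and 47.9, 49.0 and 55.1 CPM in DKO. Groups overlapped, and MycKO9 was above the other MycKO libraries. In MlxKO Tyms was at 0.31 (adjusted p = 0.177, limma), and 0.46 (adjusted p = 0.0385) without WT4. Rrm1 ranged from 287 to 414 CPM with no call.

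Salvage is carried by Hprt and Aprt for purine bases and by Tk1, Dck and Uck2 for nucleosides. In primary cells 4 of the 5 fell in MycKO and 4 in DKO, all but Uck2, where 21.9% and 25.5% of all genes fell. Tk1 (ENSMUSG00000025574, chromosome 11 from 117702770 to 117717042), thymidine kinase of the cytosol, was at 47.8, 42.1 and 39.1 CPM in WT, 34.9, 31.6 and 36.1 CPM in MlxKO, 21.2, 20.5 and 26.0 CPM in MycKO and 22.3, 17.9 and 22.2 CPM in DKO. The MlxKO libraries lay below WT, and MycKO and DKO below MlxKO. Tk1 changed by -0.90 (SE 0.110, adjusted p = 5.9e-06, limma) in MycKO and -1.02 (adjusted p = 1.25e-06, limma) in DKO, while -0.32 in MlxKO missed the threshold (adjusted p = 0.081, limma) but not with DESeq2, with only the groups compared, or without MycKO10 (adjusted p = 0.0391). Dck (ENSMUSG00000029366, chromosome 5 from 88912695 to 88931151), deoxycytidine kinase, was at 37.8, 32.8 and 31.0 CPM in WT, 25.5, 35.2 and 31.3 CPM in MlxKO, 16.4, 22.4 and 18.2 CPM in MycKO and 14.2, 14.3 and 15.9 CPM in DKO. MycKO and DKO lay below WT and MlxKO, with log2 fold changes of -0.81 (adjusted p = 6.8e-05, limma) and -1.14 (adjusted p = 1.46e-06, limma). Uck2 (ENSMUSG00000026558, chromosome 1 from 167050452 to 167112889), which phosphorylates uridine and cytidine, was at 119.8, 121 and 112 CPM in WT, 116, 114 and 115 CPM in MlxKO, 119, 100.3 and 119.5 CPM in MycKO and 121, 111 and 116 CPM in DKO. All groups overlapped, and MycKO10 was lowest.

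Aprt (ENSMUSG00000006589, chromosome 8 from 123301184 to 123303648), which recovers adenine, was at 81.6, 79.6 and 72.2 CPM in WT, 70.7, 70.5 and 77.8 CPM in MlxKO, 51.3, 50.4 and 58.2 CPM in MycKO and 54.2, 50.2 and 51.3 CPM in DKO in primary cells. MycKO and DKO lay together below WT and MlxKO, at -0.54 (adjusted p = 2.42e-05, limma) and -0.57 (adjusted p = 9.69e-06, limma) against WT. Hprt, which recovers hypoxanthine and guanine, ran from 69.0 to 77.4 CPM in WT to 49.0 to 51.6 CPM in DKO and changed by -0.34 (adjusted p = 0.005, limma) in MycKO.

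In immortalized cells Tk1 was at 64.2, 76.4 and 82.5 CPM in WT, 97.5, 111 and 114 CPM in MlxKO, 126, 105 and 106 CPM in MycKO and 103, 89.8 and 107 CPM in DKO. All knockout libraries were above all WT libraries. Tk1 rose by 0.59 (SE 0.123, adjusted p = 0.00204, limma) in MycKO, 0.53 (adjusted p = 0.00609, limma) in MlxKO and 0.43 (adjusted p = 0.0318, limma) in DKO, the last not with only the groups compared or without WT2, DKO13 or DKO15 (adjusted p from 0.00348 to 0.111). The interaction was -0.69 (adjusted p = 0.00637, limma). Uck2 was at 95.6, 102 and 86.4 CPM in WT, 83.5, 112 and 98.9 CPM in MlxKO, 108, 121 and 121 CPM in MycKO and 66.0, 60.0 and 62.2 CPM in DKO. DKO libraries were the lowest, below all others, and MycKO lay above WT, by a difference that missed the threshold at 0.30 (adjusted p = 0.0531, limma) and was called with edgeR, DESeq2 and median-ratio scaling and without WT3, MlxKO5, MlxKO6 or MycKO9 in turn. Uck2 changed by -0.58 (adjusted p = 0.0058, limma) in DKO, differed between DKO and MycKO by -0.88 (SE 0.118, adjusted p = 0.000131, limma), and had an interaction of -0.93 (adjusted p = 0.000894, limma).

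Aprt was at 55.4, 57.0 and 89.8 CPM in WT, 81.8, 89.2 and 85.9 CPM in MlxKO, 78.5, 59.4 and 60.1 CPM in MycKO and 43.0, 41.5 and 46.2 CPM in DKO in immortalized cells. DKO libraries were the lowest, and WT4 lay with MlxKO, well above WT2 and WT3. The DKO value of -0.58 (adjusted p = 0.0332, limma) became -0.36 (adjusted p = 0.0512) without WT4 and was lost with only the groups compared, without the filter, and without MlxKO7 or any DKO library as well (adjusted p from 0.00752 to 0.112). Against MycKO the difference was -0.58 (adjusted p = 0.0227, limma), lost without MycKO9, DKO13 or DKO14 (adjusted p from 0.000806 to 0.0875), and the interaction was -0.95 (adjusted p = 0.0066, limma). Dck was at 106, 86.8 and 148 CPM in WT, 85.0, 74.9 and 83.6 CPM in MlxKO, 112, 94.5 and 99.0 CPM in MycKO and 79.4, 101 and 98.4 CPM in DKO. WT4 was highest, MlxKO lay below WT, and limma called no comparison, with -0.45 in MlxKO (adjusted p = 0.0526). Dck was called there with edgeR, with DESeq2 and without WT3, the last at -0.62 (adjusted p = 0.00955). Hprt ranged from 73.9 to 161 CPM and was called only without WT3, in MlxKO, at -0.66 (adjusted p = 0.0407).

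Nucleoside mono- and diphosphates are phosphorylated by Dtymk, Cmpk1, Guk1, Nme1 and Nme2. In primary cells 2 of the 5 fell in MycKO and 3 in DKO, where 21.9% and 25.5% of all genes fell. Nme1 (ENSMUSG00000037601, chromosome 11 from 93847803 to 93887377) was at 88.3, 92.6 and 87.7 CPM in WT, 73.7, 74.6 and 95.6 CPM in MlxKO, 61.4, 46.5 and 58.2 CPM in MycKO and 39.2, 38.5 and 38.5 CPM in DKO. MycKO lay below WT and DKO below MycKO, without overlap. Nme1 changed by -0.69 (SE 0.102, adjusted p = 4.31e-05, limma) in MycKO, -1.19 (adjusted p = 1.01e-07, limma) in DKO and -0.49 (adjusted p = 0.00207, limma) from MycKO to DKO. Nme2 (ENSMUSG00000020857, chromosome 11 from 93840587 to 93847300) was at 368, 376 and 308 CPM in WT, 306, 278 and 329 CPM in MlxKO, 378, 213 and 384 CPM in MycKO and 269, 271 and 282 CPM in DKO. MycKO10 held less than any other library, while MycKO9 and MycKO11 were just above WT, and DKO lay below WT, at -0.35 on the log2 scale (adjusted p = 0.0764, limma). That difference was called with library-total scaling, with only the groups compared, without WT3 at -0.44 (adjusted p = 0.0448), and without MycKO10 at -0.35 (adjusted p = 0.000392). Dtymk (ENSMUSG00000026281, chromosome 1 from 93718799 to 93729710), thymidylate kinase, was at 39.0, 42.3 and 38.1 CPM in WT, 36.2, 36.5 and 43.9 CPM in MlxKO, 29.2, 24.4 and 31.7 CPM in MycKO and 23.5, 23.5 and 22.7 CPM in DKO. MycKO and DKO lay below WT and MlxKO, with log2 fold changes of -0.48 (adjusted p = 0.000881, limma) and -0.75 (adjusted p = 9.67e-06, limma). Guk1, guanylate kinase, was between 16.5 and 24.4 CPM and changed in DKO by -0.39 (adjusted p = 0.00312, limma).

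Nme1 and Nme2 share 11.9% and 41.3% of their 50-base stretches with a gene that reads through both, Gm20390 in the tables. The sum of the 3 genes in primary cells was 502, 514 and 430.3 CPM in WT, 408, 381 and 457 CPM in MlxKO, 479.8, 292 and 504 CPM in MycKO and 331, 335 and 348 CPM in DKO. MycKO10 was the lowest library of this sum, below DKO, and the other MycKO libraries overlapped WT. In primary WT cells Nme2 was at 292 ± 31.0 and Nme1 at 28.2 ± 0.836 CPM per kb (mean ± SD, n = 3). These values rest on the annotated canonical transcript of each gene, of 1.203 kb for Nme2 and 3.181 kb for Nme1.

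In immortalized cells Nme2 was at 174, 249.6 and 182 CPM in WT, 191, 245 and 247 CPM in MlxKO, 628, 286 and 288 CPM in MycKO and 231, 207 and 271 CPM in DKO. MycKO9 held more than any other library, and the other MycKO libraries were also above all others. Nme2 rose by 0.90 (SE 0.264, adjusted p = 0.0141, limma) in MycKO, by 0.53 (adjusted p = 0.0325) without MycKO9 and by 0.84 (adjusted p = 0.0208) without WT4, and the call was lost with only the groups compared and without WT2 (adjusted p from 0.000943 to 0.0613). Nme1 was at 45.4, 58.6 and 109.8 CPM in WT, 54.7, 63.5 and 74.1 CPM in MlxKO, 78.4, 42.9 and 39.7 CPM in MycKO and 42.5, 45.5 and 54.5 CPM in DKO. WT4 and MycKO9 were the highest of their groups, which overlapped. The sum of Nme1, Nme2 and Gm20390 was 233, 319.6 and 302 CPM in WT, 277, 379 and 384 CPM in MlxKO, 798, 368 and 366 CPM in MycKO and 309.7, 273 and 349.9 CPM in DKO, with MycKO9 again far above the rest.

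Cmpk1 (ENSMUSG00000028719, chromosome 4 from 114802024 to 114844454), UMP-CMP kinase, was at 85.7, 82.0 and 81.2 CPM in WT, 82.0, 89.4 and 93.6 CPM in MlxKO, 82.0, 89.7 and 82.7 CPM in MycKO and 75, 77.1 and 82.4 CPM in DKO in primary cells, where all groups overlapped. In immortalized cells it was at 133, 124 and 119 CPM in WT, 88.7, 62.8 and 80.4 CPM in MlxKO, 114, 76.4 and 83.8 CPM in MycKO and 94.7, 121 and 128 CPM in DKO. MlxKO and MycKO lay below all WT libraries and DKO overlapped WT. Cmpk1 changed by -0.70 (SE 0.171, adjusted p = 0.00756, limma) in MlxKO and had an interaction of 1.03 (adjusted p = 0.00427, limma). The log2 fold change of -0.47 (adjusted p = 0.0383, limma) in MycKO was lost without WT2, WT3, MlxKO7, MycKO10, MycKO11 or DKO14 in turn, with edgeR, with only the groups compared and without the filter (adjusted p from 0.0029 to 0.146). Dtymk was at 54.4, 55.7 and 67.7 CPM in WT, 50.1, 56.7 and 54.2 CPM in MlxKO, 67.2, 45.1 and 47.4 CPM in MycKO and 47.7, 46.3 and 52.3 CPM in DKO. Groups overlapped except for DKO, which lay below WT, at -0.27 (adjusted p = 0.211, limma). In MycKO, limma called Dtymk only without MycKO9, at -0.34 (adjusted p = 0.0361). Guk1 ranged from 9.61 to 17.6 CPM, highest in MycKO9, and was called only with MycKO9 left out, at -0.65 (adjusted p = 0.00387) in MycKO and -0.50 (adjusted p = 0.0165) in DKO.

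Samhd1 (ENSMUSG00000027639, chromosome 2 from 156939453 to 156977187) breaks deoxynucleotides down, the opposite of the synthesis genes above. It was at 124, 117 and 102 CPM in WT, 109, 113 and 109 CPM in MlxKO, 73.2, 79.6 and 74.0 CPM in MycKO and 86.8, 87.5 and 89.3 CPM in DKO in primary cells. MycKO was lowest, DKO lay between MycKO and WT, and MlxKO overlapped WT. Samhd1 changed by -0.59 (SE 0.0700, adjusted p = 4.72e-06, limma) in MycKO and -0.37 (adjusted p = 0.000324, limma) in DKO. DKO was above MycKO by 0.21 (adjusted p = 0.0371, limma), a call lost without MycKO9, MycKO11 or any DKO library in turn (adjusted p from 0.0129 to 0.118). In immortalized cells it was at 185, 215 and 146 CPM in WT, 308, 261 and 283 CPM in MlxKO, 209, 261 and 257 CPM in MycKO and 304, 279 and 285 CPM in DKO. MlxKO and DKO lay above all WT libraries, while MycKO9 overlapped WT. Samhd1 rose by 0.65 (SE 0.142, adjusted p = 0.00421, limma) in MlxKO and 0.68 (adjusted p = 0.00681, limma) in DKO. The rise of 0.42 (adjusted p = 0.0273, limma) in MycKO was lost with only the groups compared and without WT2, WT4, MycKO10 or MycKO11, at 0.27 (adjusted p = 0.0732) without WT4 (adjusted p from 0.00766 to 0.1).

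Samhd1 is known to be abundant in macrophages. In primary cells the summed CPM of 10 macrophage markers was 605, 481 and 309 in WT, 343, 420.2 and 380.2 in MlxKO, 77.0, 53 and 58.3 in MycKO and 119, 108 and 243 in DKO. The most abundant was Lyz2, at 152 to 298 CPM in WT and 28.5 to 47.1 CPM in MycKO, and 0 of the 10 were at 0 in every library. Limma called 10 of 10 lower in MycKO and 10 of 10 lower in DKO, with medians of -2.57 and -1.61 on the log2 scale, and 8 of 10 higher in DKO than in MycKO. Of all genes, 21.9% were lower in MycKO and 25.5% in DKO, and 10.6% were higher in DKO than in MycKO. MycKO was lowest for these markers as for Samhd1. Their part in the primary Samhd1 result was not tested. In bulk RNA, fewer cells of a type and less RNA per cell cannot be told apart. In immortalized cells the 10 markers summed to 1.58 to 8.06 CPM, 3 of them were at 0 in every library, Adgre1 among them, and 7 were below 1 CPM in every library, while Samhd1 was at 146 to 308 CPM. Of the 2 tested there, Cd68 fell in MycKO and rose in MlxKO and DKO, and Mpeg1 rose in MlxKO with WT4 and fell in MycKO without it.

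Of all genes tested, the share called against WT in MycKO, MlxKO and DKO was 42.3%, 8.88% and 49.5% in primary cells and 48.0%, 38.9% and 18.9% in immortalized cells, for comparison with the lists that follow. Genes of S phase and mitosis were set beside the primary results. Of 15 such genes, 14 fell in MycKO, 12 in MlxKO and 14 in DKO, with medians of -0.77, -0.28 and -1.14 and the largest changes in Ccne2 (-1.12) and Mcm6 (-0.96) in MycKO and Ccne2 (-1.49) and Mcm7 (-1.36) in DKO. Their summed CPM was 1592, 1576 and 1516 in WT, 1233, 1285 and 1259 in MlxKO, 898, 1037 and 924 in MycKO and 749, 742 and 718 in DKO. All knockout libraries lay below WT and DKO lay lowest, the order seen for Pfas and Cad. Their part in the nucleotide results was not tested. In immortalized cells limma called 0 of the 15 lower and 1, E2f1, higher in MycKO, 3 lower and 2 higher in MlxKO, and 0 lower and 1, again E2f1, higher in DKO, with medians of -0.12, -0.06 and -0.09. At an unadjusted p under 0.05, 2 were lower in MycKO and 3 in DKO, edgeR called 0 lower in both, and DESeq2 called 1 and 2 lower. Without WT4, 1 was lower and 3 higher in MycKO, 3 and 3 in MlxKO, and 1 and 1 in DKO. The summed CPM there was 3001 to 3802, highest in WT4.

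A list of 12 p53 targets, of which Cdkn1a is the best known, had 7 rises and 2 falls in primary MycKO, 1 rise in MlxKO and 2 rises and 3 falls in DKO. Its largest log2 fold changes were in Sesn1 (-0.55) and Cdkn1a (0.54) in MycKO, Btg2 (-0.40) and Trp53inp1 (0.40) in MlxKO and Btg2 (-0.51) and Mdm2 (-0.42) in DKO. In immortalized cells it had 4 rises and 3 falls in MycKO, next to 48.0% of all genes called there, 4 and 4 in MlxKO, and 2 and 2 in DKO, and the largest log2 fold changes were in Btg2 (-2.02) and Phlda3 (1.45), Btg2 (-1.04) and Bax (0.80) and Phlda3 (0.85) and Sesn1 (-0.64). Without WT4 the rises and falls were 5 and 4, 4 and 5, and 3 and 4. Against WT, Rrm2b was called in immortalized MycKO and MlxKO cells alone, and lower there.

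Other genes of the pathway were counted beside the 33. Among 20 tested genes of purine conversion and breakdown, 8 fell and 6 rose in primary MycKO (Gda (0.70) and Ak4 (-0.65) had the largest log2 fold changes), 1 fell and 1 rose in MlxKO (Ak4 (-0.54) and Gda (-0.53)), and 6 fell and 2 rose in DKO (Adss (-0.65) and Ada (-0.60)). In immortalized cells 1 fell and 5 rose in MycKO (Ampd3 (-1.89) and Ak5 (1.22)), a lower share than the 48.0% of all genes, 2 and 5 in MlxKO (Gda (1.18) and Ak1 (0.85)), and 2 rose in DKO (Gda (1.28) and Ampd3 (0.82)), and without WT4 the falls and rises were 3 and 6, 4 and 5, and 1 and 3. The 9 tested genes of pyrimidine salvage and breakdown had 2 falls and 3 rises in primary MycKO (Cmpk2 (-1.29) and Dctpp1 (-0.88)), 2 and 4 in DKO (Dctpp1 (-1.12) and Dpyd (0.89)), and limma called 0 of them in MlxKO (Dpyd (0.53) and Dctpp1 (-0.34)), with 1 lower and 1 higher at an unadjusted p under 0.05 and 1 higher by edgeR and by DESeq2. Of 11 tested in immortalized cells, 1 fell and 3 rose in MycKO (Cda (-2.49) and Cmpk2 (1.11)), 4 rose in MlxKO (Cmpk2 (2.72) and Dpyd (1.16)), and limma called 0 in DKO (Cmpk2 (1.35) and Upp1 (0.81)), with 1 higher at an unadjusted p under 0.05, 0 by edgeR and 1 by DESeq2. Without WT4 the falls and rises were 2 and 3 in MycKO and 1 and 4 in MlxKO. Names in parentheses are those with the largest log2 fold change, called or not.

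For 18 tested nucleotidases, transporters and further nucleotide kinases, 6 fell and 1 rose in primary MycKO, with the nucleoside transporters Slc29a1 (-1.10) and Slc29a2 (-0.93) at the largest log2 fold changes, 1 rose in MlxKO (Nme4 (-0.35) and Slc25a33 (0.34) were largest), and 7 fell in DKO (Slc29a2 (-0.95) and Slc29a1 (-0.64)). In immortalized cells 5 fell and 3 rose in MycKO (Nt5e (-2.93) and Nt5c (1.34)), 4 and 2 in MlxKO (Nt5e (-1.58) and Nt5c (0.87)), and 1 fell in DKO (Slc29a2 (-1.35) and Nme4 (-0.77)), and 5 and 5, 4 and 3, and 1 and 0 without WT4. Cmpk2, a mitochondrial kinase known to respond to interferon, was at 42.5, 49.1 and 1.03 CPM in WT, 113, 103 and 106 CPM in MlxKO, 34.1, 34.7 and 34.3 CPM in MycKO and 41.3, 41.9 and 39.4 CPM in DKO in immortalized cells. WT4 alone was near 1 CPM, and MlxKO was highest. The positive Cmpk2 values in MycKO and DKO above rest on WT4, and without it they were -0.40 (adjusted p = 0.00442) and -0.16 (adjusted p = 0.292), with 1.21 (adjusted p = 8.03e-07) in MlxKO.

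Ctps2, Hprt, Prps1 and Prps2 lie on the X chromosome, and sex-linked RNA differed between groups. In primary cells Xist, which is made from an inactive X, was at 143, 176 and 186 CPM in WT, 171, 186 and 113 CPM in MlxKO, 103, 146 and 102 CPM in MycKO and 545, 529 and 544 CPM in DKO, and the 4 Y-linked genes summed to 97.5, 103 and 111 CPM in WT, 119.7, 121 and 117 in MlxKO, 140.4, 161 and 125 in MycKO and 18.8, 19.8 and 19.1 in DKO. The primary DKO libraries had the most Xist and the least Y-linked RNA. In immortalized cells Xist was at 2114, 1574 and 549.7 CPM in WT, 266, 254 and 238 CPM in MlxKO, 395, 526 and 483 CPM in MycKO and 1133, 1156 and 790.0 CPM in DKO, highest in WT2 and lowest in MlxKO. The part of these differences in the results of the 4 X-linked genes was not tested.

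Since most of the 33 genes fell together in primary MycKO cells, their promoters (250 bases before to 50 after the start, RefSeq, GRCm38.p6) were searched for CACGTG, which reads the same on both strands. Promoters were matched for 30 of the 33 genes, and Pfas, Dhodh and Rrm2b were not matched. The sequence was found in 6 of the 30 (20%), namely Paics, Atic, Impdh2, Tyms, Dtymk and Nme1, against 8.09% of 27025 genes in the promoter table and 11.7% of 10252 genes tested in primary cells. In a window of 100 bases before to 50 after the start it was found in 3 of the 30 (10%), against 5.0% of all genes in the promoter table and 7.45% of those tested in primary cells. A match is a description of these letters and not a binding site. Of all genes tested, 21.9% fell in primary MycKO cells. All 6 genes with the sequence fell there, as did 17 of the 24 (70.8%) matched genes without it, a difference that was not tested. The stretches are shown for 5 of them, 5′ to 3′ on the strand of the gene, with CACGTG in capitals, to let the reader see where the letters lie, with the match in Paics and a further one of Nme1 left out.
Atic, chr1:71557137-71557155, plus strand: ggacctcggggtCACGTGg
Impdh2, chr9:108560314-108560343, plus strand: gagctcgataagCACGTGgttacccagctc
Tyms, chr5:30073669-30073698, minus strand: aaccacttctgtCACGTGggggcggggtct
Dtymk, chr1:93802065-93802094, minus strand: gtctcgaacttcCACGTGaccagagcctgc
Nme1, chr11:93968273-93968302, minus strand: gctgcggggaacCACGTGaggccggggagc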

How the data were processed

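Poly-A RNA of 24 libraries was sequenced by the authors in directional libraries on an Illumina NovaSeq, and reads were mapped to GRCm39 and counted in CLC Genomics Workbench 22. The values are signal, deposited by the authors as CPM in a table of 41710 genes and 12 libraries for each kind of MEF. The scaling between libraries is not named, the deposited signal was used as it is, and all columns were used. Whole reads were recovered from the values within 0.1 of a read, and give 15986856 to 20966163 reads per library.

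The test was limma 3.58.1 (R 4.3.3) on log2(CPM + 1), with empirical Bayes and its trend option, all 4 genotypes of a table together, and p-values adjusted after Benjamini and Hochberg for every gene with 1 CPM in 3 libraries or more, at a threshold of 0.05. The 10 comparisons were each knockout against WT, DKO against MycKO and the interaction, in each table. Groups came from the labels. The fits were tested on simulated data. Tables were handled with Python 3.11.15 and pandas 2.3.3 and drawn with matplotlib 3.10.9. Gene places, the length of the canonical transcript of each gene and the 50-base stretches shared between transcripts (75 as the alternative) came from GENCODE vM39. Promoters came from RefSeq.

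Alternatives were a pseudocount of 0.1, no filter, a filter on means (5 CPM), median-ratio and library-total scaling, a robust prior, fits of the groups compared alone, recovered reads in edgeR 4.0.16 or in DESeq2 1.42.0, a fold minimum (1 on the log2 scale in either direction), a shorter promoter window, and the omission of each library in turn.

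Values in every library are given for Myc and Mlx, for the genes with the largest log2 fold changes of each role in MycKO of either table, for genes called in MlxKO or in the interaction, and for pairs of enzymes that do the same step. Other genes are given by range. The 33 genes and the lists set beside them (other purine, other pyrimidine, nucleotidases and transporters, S phase and mitosis, p53 targets, sex-linked genes and markers of 5 cell types) were chosen with earlier results of these data known, and 1 gene of the other purine list is not reported here. Other genes of the tables were used only in the fit and as background.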

Additional observations from a re-analysis of the deposited data

Results flagged for a closer look

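In immortalized cells, the test of the interaction was passed by 12 of the 33 genes. For these, the difference of DKO from MycKO was unlike that of MlxKO from WT. The groups also differed in sex-linked RNA, and the part of other differences between the lines was not tested. Of all genes tested, 47.4% passed the interaction test, a larger share than among the 33. Without WT4 the interaction test was passed by 19 of the 33 and 56.7% of all genes. The interaction was positive for Rrm2b (1.27 on the log2 scale), Cmpk1 (1.03), Prps2 (1.01), Rrm2 (0.71), Gmps (0.64), Ctps (0.61) and Ctps2 (0.45), which means that the change from MycKO to DKO lay above the change from WT to MlxKO. It was negative for Impdh1 (-1.09), Aprt (-0.95), Uck2 (-0.93), Impdh2 (-0.72) and Tk1 (-0.69). The calls of Gmps, Ctps2 and Impdh2 were lost under 9, 7 and 13 of 21 alternatives, the fold minimum not counted, and the others under none of these 21. With the fold minimum 4 of the 12 calls were left.

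A pair of genes lay on opposite sides of WT in the 2 tables, with every library of a group on the same side. Tk1 was at -0.90 in primary and 0.59 in immortalized MycKO cells, and at -1.02 and 0.43 in DKO cells. In MlxKO cells it was at -0.32, which was not called (adjusted p = 0.081, limma), and at 0.53. Samhd1 was at -0.37 in primary and 0.68 in immortalized DKO cells. The difference between the tables was not tested for either gene. Without WT4, Ctps in DKO and Pfas, Cad and Tyms in MlxKO were also called lower in primary and higher in immortalized cells.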

How the results depend on the processing

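No call of the 33 genes turned its direction under any alternative run. Calls that held under every alternative other than the fold minimum were 23 of 25 in primary MycKO, 4 of 4 in MlxKO, 26 of 28 in DKO and 5 of 12 in DKO against MycKO. In immortalized cells they were 6 of 14 in MycKO, 5 of 6 in MlxKO, 2 of 11 in DKO, 3 of 7 in DKO against MycKO and 9 of 12 in the interaction.

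With a minimum of 1 for the size of the log2 fold change as a further condition, which can only take calls away, the number called became 2 in primary MycKO, 0 in MlxKO, 10 in DKO and 0 in DKO against MycKO, and in immortalized cells 0 in MycKO, 0 in MlxKO, 0 in DKO, 0 in DKO against MycKO and 4 in the interaction. The primary interaction had 1 call with library-total scaling and 1 with DESeq2. With only the groups compared in the fit, which leaves fewer libraries to estimate the spread, immortalized MycKO had 7 calls and DKO 2. Without the filter on low values immortalized DKO had 7. Without WT4 and MycKO9 together, chosen after seeing the data, immortalized MlxKO had 15, DKO against MycKO 12 and the interaction 21. Beyond these constructions the cause was not tested.

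With each library left out in turn, the number called ran from 23 to 26 in primary MycKO, 4 to 6 in MlxKO, 26 to 29 in DKO, 6 to 18 in DKO against MycKO and 0 to 2 in the interaction. In immortalized cells it ran from 9 to 17 in MycKO, 5 to 14 in MlxKO, 4 to 13 in DKO, 3 to 11 in DKO against MycKO and 9 to 19 in the interaction. The calls of all genes move as well, from 29.4% to 40.9% in immortalized DKO against MycKO without WT4, for example. Most counts of this section stand without the share of all genes, so they do not set the 33 genes apart. No paired analysis was possible because nothing ties the library numbers of the columns to the labels' replicates. Depth did not limit the 33 genes, which all lay above the floor of 3 reads in every library.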

Other observations

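Markers of fibroblasts differed between groups in primary cells, where 8 of 10 rose and 1 fell in MycKO, 3 rose and 1 fell in MlxKO, and 8 rose and 1 fell in DKO, next to 42.3%, 8.88% and 49.5% of all genes called in either direction. The largest log2 fold changes were in Dcn (1.08) and Thy1 (0.70) in MycKO and Dcn (1.27) and Col3a1 (0.72) in DKO. In immortalized cells 2 rose and 3 fell in MycKO (Thy1 (4.18) and Lum (-2.27)), 2 rose and 1 fell in MlxKO, and 1 rose and 1 fell in DKO, and without WT4 the rises and falls were 2 and 4, 3 and 3, and 1 and 2.

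The immortalized WT libraries differed in Thy1, a surface protein of fibroblasts, at 14.9, 21.1 and 123 CPM in WT2, WT3 and WT4, and in Pdgfra, a growth factor receptor, at 98.8, 116 and 565 CPM. Both were far higher in WT4.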
